A study of Caenorhabditis elegans with 3 samples.

Results

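Transcripts of 9 maternal regulators of oocytes and early embryos were compared between adult hermaphrodites of the worm Caenorhabditis elegans and a mixed reference: oma-1, oma-2, mex-1, mex-3, mex-5, mex-6, pos-1, pie-1 and spn-4. They were chosen by gene symbol, and each was matched to 1 row of the array table, with a value on all 3 arrays, among 19293 genes and unnamed rows tested. Each of the 3 two-colour arrays set a preparation of adults (preparation 1, 2 or 3, called replicate 1, 2 and 3 here) against that reference, which was wild-type mRNA. The adults are marked TP12 and "w/ emb 3" in the labels, taken to mean that they carried embryos, and neither their strain, genotype and age nor the makeup of the reference is given. Whether the preparations came from different cultures is not stated, so the spread between replicates may be technical, and having 3 arrays limits the precision.

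Oocytes of this worm are loaded with mRNA that the early embryo translates before its own transcription takes over, and RNA-binding proteins decide where and when each message is used. All of the 9 gene products but MEX-3 and SPN-4 carry the CCCH zinc finger, an RNA-binding fold held by cysteines and a histidine around zinc, while MEX-3 has KH domains and SPN-4 has an RNA recognition motif. OMA-1 and OMA-2 act redundantly in oocyte maturation. MEX-5 and MEX-6 act in the zygote to keep germline proteins out of its anterior, and PIE-1, POS-1, MEX-1, MEX-3 and SPN-4 set the fates of the blastomeres that follow.

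All values are log2 ratios of the channels of an array, with a mean and median near 0 on each array as deposited, so that 0 is about the typical transcript and a ratio carries no absolute level. No source states which channel is the numerator. Adults over reference is taken as likely, from the channel order in the labels and from 8 larval moulting and cuticle markers, of which 6 passed the test below with a negative ratio and 0 with a positive one. These markers were chosen with earlier results of these data known, so they are no independent check. Their use also presumes larvae in the reference, whose makeup is not given. Under the opposite direction every "higher" below would read "lower".

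All 9 transcripts were higher in the adults than in the mixed reference. Their mean log2 ratios ran from 1.06 for mex-6 to 1.89 for mex-1, or from 2.08-fold to 3.70-fold, with a median of 1.45 beside 0.018 over all tested. In limma with Benjamini-Hochberg adjustment over all 19293, 9 of 9 passed an adjusted p of 0.05 as higher and 0 as lower, where 14.8% of all tested passed as higher and 13.7% as lower. The mean ratio was at least 1, a doubling, for all 9, beside 3.88% of all tested that passed as higher with such a mean. The ratio was above 0 on all 3 arrays for the 9 genes, beside 30.1% of all tested. It was at least 1 on all 3 arrays for 7 of them, beside 1.91% of all tested, the other two being mex-6 and pos-1, which were below 1 on replicate 3. In whole animals, more cells of a type and more RNA per cell cannot be told apart. Without moderation of the variance across genes, no gene of the whole table passed in limma's fit. In that fit 8 of the 9 (all but pos-1) had an unadjusted p under 0.05, beside 4903 of the 19293 tested.

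**Figure D1:**
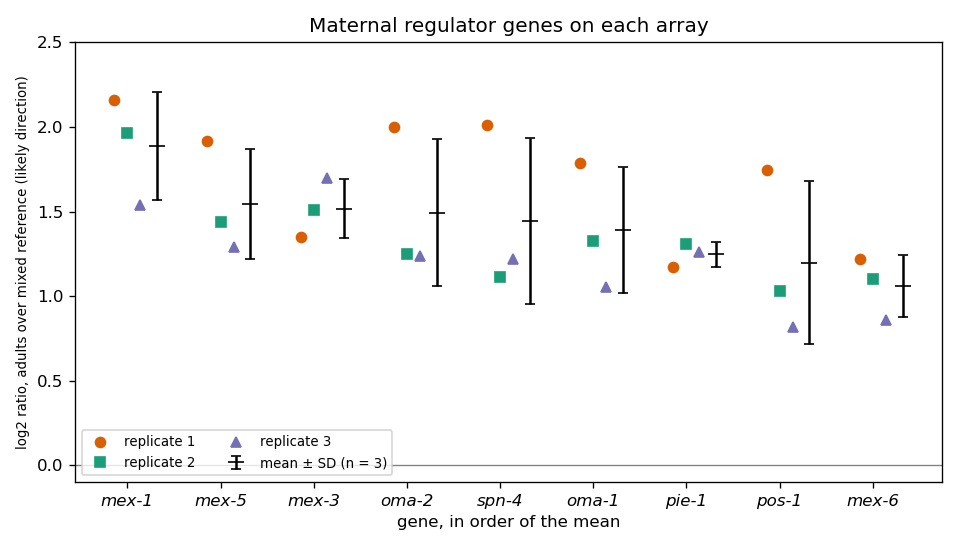
Log2 ratio (vertical axis) of each of the 9 genes (horizontal axis, in order of the mean) on the arrays of replicates 1, 2 and 3, with the mean ± SD (n = 3) beside the points. All 27 points lie above 0, between 0.82 and 2.16, and 7 of the 9 genes are highest on replicate 1.

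The genes for the oocyte maturation proteins were similar to each other. The log2 ratio of oma-1 was 1.79, 1.33 and 1.05 on replicates 1, 2 and 3, with a mean of 1.39 ± 0.37 (SD, n = 3; adjusted p = 0.00115, limma). That of oma-2 was 2.00, 1.25 and 1.24, with a mean of 1.49 ± 0.44 (SD, n = 3; adjusted p = 0.00113, limma). Both were highest on replicate 1. The ratio of oma-2 exceeded that of oma-1 by 0.21 on replicate 1 and 0.18 on replicate 3 and was lower on replicate 2, so the pair differed by 0.11 ± 0.16, less than the spread between arrays. The sign of that difference also turned, to oma-1 above oma-2 by 0.073, when each of 32 blocks of consecutive rows of the table was centred on its median.

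The genes of the anterior zygote proteins were further apart. The log2 ratio of mex-5 was 1.91, 1.44 and 1.29 on replicates 1, 2 and 3, with a mean of 1.55 ± 0.33 (SD, n = 3; adjusted p = 0.000608, limma). That of mex-6 was 1.22, 1.1 and 0.86, with a mean of 1.06 ± 0.18 (SD, n = 3; adjusted p = 0.0017, limma), the lowest mean of the 9 as deposited. Without replicate 1 and with array weights pos-1 was lower, at 0.93 against 0.98 and 0.94 for mex-6. The ratio of mex-5 was above that of mex-6 on each array, by 0.70, 0.33 and 0.43, or 0.49 ± 0.19 (SD, n = 3). An exact sign-flip test over 3 arrays gave a two-sided p of 0.25, the smallest it can give. With the block medians subtracted the differences were 0.17, 0.58 and 0.55. The members of each pair are related in sequence, the probe sequences were not used here, and whether a probe also takes up the partner's transcript was not tested.

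Among the zinc finger genes of the germ lineage, mex-1 stood highest. MEX-1 is needed to keep P granules and PIE-1 in the germline blastomeres, and its transcript had log2 ratios of 2.16, 1.96 and 1.54 on replicates 1, 2 and 3, with a mean of 1.89 ± 0.32 (SD, n = 3; adjusted p = 0.000286, limma). That mean ranked 53rd of the 19293 tested. POS-1, which controls translation of maternal messages in posterior blastomeres, had a transcript at 1.74, 1.03 and 0.82, with a mean of 1.2 ± 0.48 (SD, n = 3; adjusted p = 0.00337, limma). The value of pos-1 on replicate 1 was well above those on the others, and without replicate 1 its mean was 0.93, still past the threshold. PIE-1 holds back transcription in the germline blastomeres, and its transcript stood at 1.17, 1.31 and 1.26, with a mean of 1.25 ± 0.071 (SD, n = 3; adjusted p = 0.000675, limma). Its SD was the smallest of the 9 as deposited, but it was 0.21 with the block medians subtracted.

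The genes without a CCCH finger lay within the range of the others. MEX-3 represses translation of the homeobox gene pal-1 in the anterior, and mex-3 stood at 1.35, 1.51 and 1.70 on replicates 1, 2 and 3, with a mean of 1.52 ± 0.17 (SD, n = 3; adjusted p = 0.000413, limma). SPN-4 acts on spindle orientation and on translation of maternal messages, and spn-4 stood at 2.01, 1.11 and 1.22, with a mean of 1.45 ± 0.49 (SD, n = 3; adjusted p = 0.00165, limma). The array that was highest for spn-4, replicate 1, was the lowest for mex-3 as deposited. With block medians subtracted mex-3 stood at 1.53, 1.3 and 1.54, and replicate 1 was no longer its lowest.

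By mean ratio the order was mex-1, mex-5, mex-3, oma-2, spn-4, oma-1, pie-1, pos-1 and mex-6. The gap between mex-1 and mex-5 was 0.34 ± 0.16 (SD of the difference over arrays, n = 3), with mex-1 above on all 3 arrays. None of the other 7 gaps between neighbours exceeded its SD. Of the 36 pairs of genes, 19 kept 1 order on all 3 arrays. With block medians subtracted, mex-1 at 1.73 was still the highest and mex-6 at 1.03 the lowest, but the lowest place passed to pos-1 without replicate 1 and with array weights. The mean of mex-6 ranked 626th, so that all 9 lay in the top 3.25% of tested means.

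**Figure D2:**
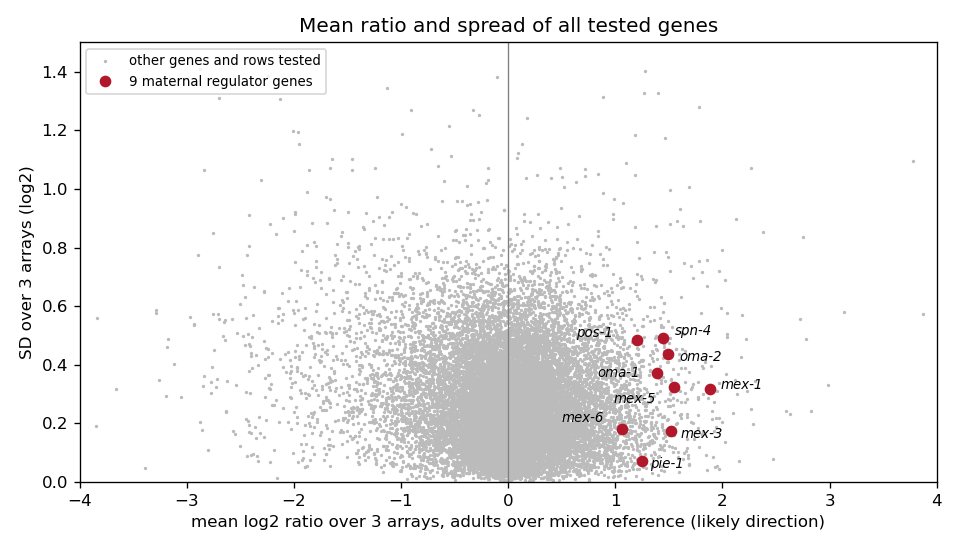
Mean log2 ratio over 3 arrays (horizontal axis) against its SD (vertical axis, log2) for the genes and rows tested, in grey, with the 9 maternal regulators in red. The red points lie between 1.06 and 1.89, right of most of the grey cloud, with SDs from 0.071 to 0.49. Outside the axes are 23 genes or rows, none of them among the 9.

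The arrays differed in how far the 9 genes stood from 0. Their median was 1.79 on replicate 1, 1.31 on replicate 2 and 1.24 on replicate 3, and 7 of them were highest on replicate 1. The SD over arrays was above the median of all tested, 0.24, for 6 of the 9. Replicate 1 correlated less with the others over all tested (Pearson's r = 0.69 and 0.68) than they did with each other (0.90). Its values also shifted with position in the table: the medians of 32 equal blocks of consecutive rows ran from -0.35 to 0.39, against -0.12 to 0.23 on replicate 2 and -0.12 to 0.21 on replicate 3. The block that holds both oma-2 and mex-5 had a median of 0.35 on replicate 1 and that of spn-4 one of 0.31, whereas the blocks of pie-1 and mex-3 had -0.34 and -0.18. With block medians subtracted, the SD among the 9 genes on replicate 1 fell from 0.37 to 0.16, and their medians were 1.64, 1.30 and 1.25 on replicates 1, 2 and 3. The 9 genes all remained higher, and 8 were then highest on replicate 1, mex-3 being the exception. The share of all tested genes highest on replicate 1 was not counted, so these counts are not read as particular to the 9. As deposited, the SD over all tested genes was 0.65, 0.70 and 0.60 on replicates 1, 2 and 3.

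**Figure D3:**
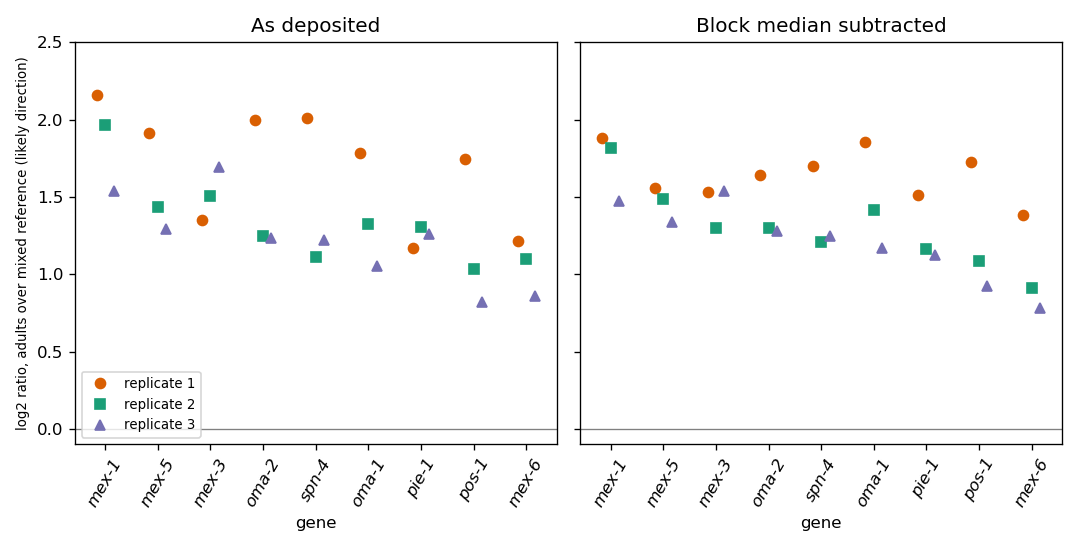
Log2 ratio (vertical axis) of the 9 genes (horizontal axis) on replicates 1, 2 and 3 as deposited (left) and with the median of the gene's block of rows subtracted (right). On replicate 1 the genes ran from 1.17 to 2.16 as deposited and from 1.39 to 1.88 after subtraction.

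The genes that act on these proteins or their messages were mostly higher too. Of 20 listed, 16 were measured, of which 13 were higher, 0 lower and 3 did not pass, with a median of 1.19, beside 14.8% higher and 13.7% lower of all tested. Highest were puf-7, puf-6 and puf-5, Pumilio-family translational repressors of oocytes, at 2.03 ± 0.14, 1.99 ± 0.21 and 1.84 ± 0.091 (SD, n = 3). Whether the probes of these related genes also take up each other's transcripts was not tested. The gene egg-4 stood at 1.81 ± 0.40 (SD, n = 3). Its product holds the kinase MBK-2 at the oocyte cortex, and its near-identical copy egg-5 means that a probe may read both. The translational repressor gene gld-1 stood at 1.49 ± 0.26 and plk-1, the Polo kinase gene whose product binds MEX-5 and MEX-6, at 1.25 ± 0.071 (SD, n = 3). The following genes were named for their roles after their values were seen. The transcript of mbk-2, the kinase that marks OMA-1 for degradation after fertilisation, stood at 0.76 ± 0.16 (adjusted p = 0.00618, limma), below all 9. That of zif-1, whose product directs CCCH proteins to degradation in somatic blastomeres, stood at 1.18 ± 0.29 (adjusted p = 0.00157, limma). By contrast par-1, the polarity kinase that phosphorylates MEX-5, had a ratio of 0.28 ± 0.29 and did not pass (adjusted p = 0.237, limma). It passed at 0.44 after subtraction of a running median over 50 rows on either side of each row.

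Most known targets and partners of the proteins were higher as well, by smaller ratios on the median. Of 15 listed, 14 were measured, of which 12 were higher, 0 lower and 2 did not pass, with a median of 0.81, against the same shares of all tested. The katanin gene mei-1, whose message OMA-1 represses, stood at 1.39 ± 0.18, and the Wnt gene mom-2 at 1.35 ± 0.18 (SD, n = 3). The endomesoderm regulator neg-1 stood at 1.21 ± 0.30, and let-418, a chromatin remodeller gene, at 1.2 ± 0.34 (SD, n = 3). The Nanos gene nos-2 stood at 1.08 ± 0.16 and the Notch receptor gene glp-1 at 0.98 ± 0.25 (SD, n = 3). The gene skn-1, a transcription factor of the EMS blastomere, had a ratio of 0.27 ± 0.13 and did not pass (adjusted p = 0.205, limma). Without 1 replicate, 9 to 13 targets and partners and 11 to 15 of the genes acting on the proteins were higher. Both lists had most without replicate 1, where 4280 of all 19293 tested were higher. Over all tested 1916 were higher without replicate 2 and 1954 without replicate 3. How far the adjusted p followed a gene's own spread differed between these fits, so their counts are not like for like.

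Other genes with a CCCH finger gave a few calls in each direction, which is not read as a result about the list. Of 13 listed, 10 were measured, of which 3 were higher, 2 lower and 5 did not pass, with a median of 0.32, beside 14.8% higher and 13.7% lower of all tested. The higher ones were gla-3, a regulator of germ cell death, at 1.13 ± 0.33, dct-13 at 0.91 ± 0.48, and the splicing factor gene uaf-2 at 0.49 ± 0.038 (SD, n = 3). Without replicate 2 or replicate 3, uaf-2 did not pass (adjusted p = 0.164 and 0.227, limma), with means of 0.49 and 0.47. Among the listed genes, the adjusted p in both fits followed almost only the size of the mean, whatever the gene's own spread. These failures therefore do not measure how uaf-2 varied between arrays, where it stood at 0.45, 0.48 and 0.52 on replicates 1, 2 and 3. The lower ones were ccch-1 at -1.05 ± 0.20 and rege-1, which encodes a ribonuclease, at -0.68 ± 0.22 (SD, n = 3). The gene moe-3 had ratios of -0.19, -0.23 and -0.38 on replicates 1, 2 and 3 and did not pass (adjusted p = 0.196, limma), while oma-1 and oma-2 were above 1 on every array. It passed as lower with array weights, at -0.33, and after subtraction of the running median, at -0.38.

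**Figure D4:**
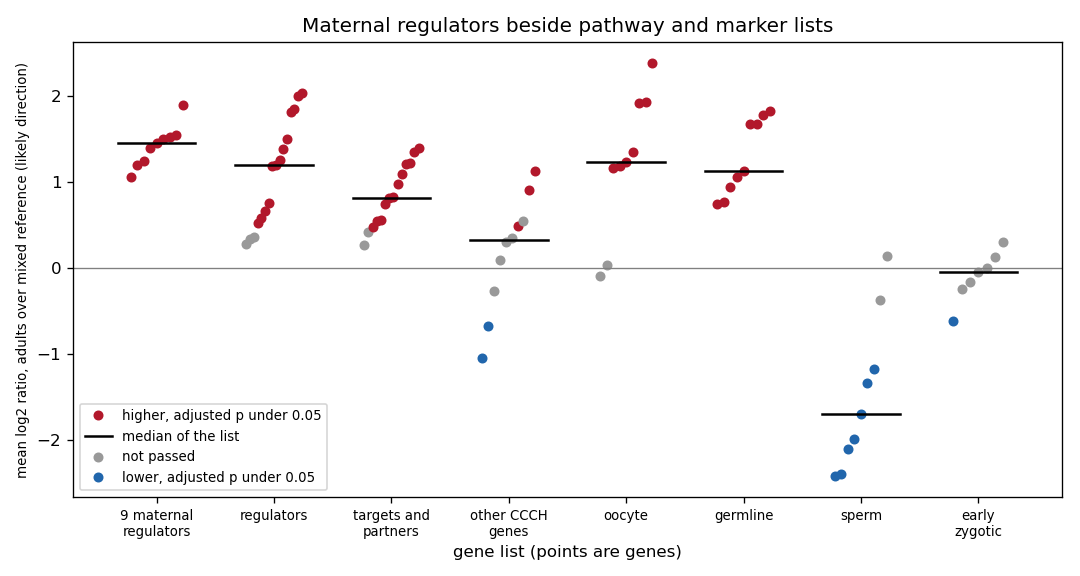
Mean log2 ratio over 3 arrays (vertical axis) of each measured gene, for the 9 maternal regulators and 7 gene lists (horizontal axis). Points are genes, coloured by whether they passed an adjusted p of 0.05 in limma as higher or lower, and black lines are medians, at 1.45 for the 9, 1.19 for the genes acting on them, 0.81 for targets and partners and 0.32 for other CCCH genes.

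Markers of the cell types in these animals set the context of these ratios, and their counts stand beside 14.8% higher and 13.7% lower of all tested. Of 9 oocyte and eggshell markers 7 were higher and 0 lower (medians of 1.25, 1.01 and 1.36 on replicates 1, 2 and 3), and 9 of 9 markers of the wider germline were higher (1.45, 1.43 and 1.07). The oocyte and eggshell markers egg-1 at -0.0998 and cpg-2 at 0.0375 did not pass. Of 9 sperm markers 7 were lower, with a median of -1.70, and all but 1 of these 7 were msp genes, of the major sperm protein family. Whether the probes of this family also take up each other's transcripts was not tested, so these calls may not be separate. The sperm genes spe-9 at 0.14 and spe-11 at -0.37 did not pass. Of 7 measured early zygotic genes, which the embryo itself transcribes, 0 were higher and 1 lower, near the share of all tested, with a median of -0.055. Markers of the soma held 3 of 6 lower for muscle, 3 of 5 lower for neurons, and 2 higher and 1 lower of 6 for intestine. With calls in both directions among 6 genes, the intestine counts are not read as a result. The part of germline or embryo content in the ratios of the 9 genes was not tested.

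As a description, the named genes nearest to the median profile of the 9 (log2 ratios of 1.79, 1.31 and 1.24 on replicates 1, 2 and 3) were found by Euclidean distance over the 3 arrays. They were hsp-110, a chaperone gene, at a distance of 0.049, inpp-4B at 0.11, thoc-2 at 0.13, rif-1.1 at 0.16 and ztf-1 at 0.16. Profiles over 3 arrays are short, and 9 named genes outside the set were as near as oma-1, which was the nearest of the 9, while 373 were as near as mex-1, the farthest.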

How the data were processed

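For each row the authors deposited a log2 ratio of both channels on every array. The base follows from the values, since raising 2 to them gave multiples of 0.001 (tolerance 0.01 of that step) for all 59554 ratios under 10. Not given in the sources used here were the scanner, dyes, background correction and normalisation. Of 20000 rows, 15655 had a single symbol in the platform annotation of 2007. Of these, 15569 were matched by gene identifier, the 9 regulators among them, and 7 by accession to the RefSeq table of assembly WBcel235, which gave names but no positions. Rows of a symbol were averaged per array, and 19293 genes or unnamed rows with 3 values were tested against 0, with no filter on low values (limma 3.58.1, R 4.3.3, lmFit and eBayes, two-sided, Benjamini-Hochberg). The fit was tested on simulated data drawn from its own variance estimates. Those data held no shifts with row position and no array that correlated less with the others, so the run does not bear on either. The reference's own spread is left out. Preparation and array cannot be told apart. The table held 0 columns of no sample.

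The 9 genes and all gene lists were chosen with earlier results of these data known. All 9 were named. From lists, the smallest p-values, opposite calls and some that did not pass were named, and genes outside that rule are marked. Alternatives were centring, quantile normalisation, leaving out replicates, variance models, array weights, single rows, missing values and, added after seeing the data, 2 corrections for row position.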

Additional observations from a re-analysis of the deposited data

How the results depend on the processing

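Each of the 9 genes remained higher in 11 of 12 alternatives, the exception being the fit without moderation. Over these 11 their median ran from 1.24 without replicate 1 to 1.56 without replicate 3, and the largest adjusted p of any was 0.00504, for pos-1. Among the 11, single rows, missing values and the other variance model left the ratios of the 9 unchanged. The 9 had 1 row each and values on all arrays, so only their p-values could differ there. Without moderation 0 of the 9 passed, as did 0 genes of each list (regulators, targets and partners, and other CCCH genes in either direction) and 0 of all tested in either direction, with 4903 at an unadjusted p under 0.05; each gene then had only 2 residual degrees of freedom. With array weights 4874 genes were higher and 4413 lower, against 2854 and 2647 as reported, and 5 other CCCH genes were higher; replicate 1 had a weight of 0.28. Without 1 replicate the counts over all tested ran from 1916 to 4280 higher and from 1802 to 3887 lower, the most without replicate 1. Without replicate 2 or 3 the adjusted p of the listed genes followed almost only the mean, but not so without replicate 1. There lin-41 at 1.266 had an adjusted p of 0.00616 and plk-1 at 1.267 one of 0.000172 (limma). The range of these counts is therefore not a measure of how far the results depend on a replicate. The difference oma-1 minus oma-2 turned from -0.11 to 0.073 with blocks of rows centred and to 0.089 with a running median subtracted; the cause was not tested. Over 588 values of single genes under the alternatives, 523 kept direction and call, 50 lost it, 15 gained it and 0 changed sign. No paired analysis was possible because all 3 arrays form 1 group. No spot intensities were used, so dim or saturated spots could not be set apart.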
